A study of Mus musculus with 64 samples.

Results

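Heat shock proteins and J-domain chaperones were described in mouse hearts under pressure overload, with and without a cardiac deletion of Ndufs4. The members were all genes of the expression table whose symbol starts with Hspa, Hspb, Hspd, Hspe, Hsph, Hsp90, Dnaja, Dnajb or Dnajc, which gave 81 of 30285 genes. By the place where their products are known to work, 36 were put in the cytosol and nucleus, 14 in the endoplasmic reticulum (ER), 10 in mitochondria and 14 in other or unknown places, and 7 are pseudogenes. The rule used symbols alone, and no measured value chose a member.

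RNA was sequenced from 64 hearts, 1 library per heart, in 4 conditions with 16 hearts each. KOTAC hearts came from mice with a cardiac-restricted Ndufs4 deletion after transverse aortic constriction (TAC), a ligature that narrows the aorta and loads the left ventricle with pressure. WTTAC hearts came from wild type mice after TAC, KOSH hearts from Ndufs4-deleted mice after sham surgery, and WTSH hearts from wild type mice after sham surgery. Hearts were frozen in week 1, 2, 4 or 8 from surgery, 4 for each condition and week. All were male C57BL6 mice operated at 3 to 4 months of age. Deletion relied on Cre under the αMHC promoter, which acts in cardiomyocytes, so the other cells of a KO heart keep the floxed gene intact. Whether the wild type mice carried Cre is not given in the sources used here. Each library came from a piece of cardiac tissue, so fewer cells of a type and less RNA per cell cannot be told apart.

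Heat shock proteins are molecular chaperones, proteins that help others to fold and keep damaged ones from clumping. Hsp70 proteins (Hspa genes) bind unfolded stretches in a cycle driven by ATP, J-domain proteins (Dnaj genes) deliver clients to them and start that cycle, and Hsp90 proteins finish the folding of kinases and receptors. Small heat shock proteins (Hspb genes) hold unfolding proteins without ATP and are abundant in muscle, where they guard the sarcomere. The ER and the mitochondrion each keep a set of their own, and the mitochondrial Hsp70 also pulls imported proteins through the inner membrane. In the cytosol, stress induces these genes mainly through heat shock factor 1, which binds heat shock elements, and in the ER through factors that bind ER stress elements.

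The start regions of several members hold these elements word for word, and they are shown because the genes found to carry them did not move together in the hearts. The heat shock element was searched as GAANNTTCNNGAA or TTCNNGAANNTTC and the ER stress element as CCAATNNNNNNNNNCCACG, on both strands, from 250 bases before to 50 bases after each RefSeq start (build GRCm38.p6). Of all 32851 start regions, 198 (0.603%) held the heat shock element and 39 (0.119%) the ER stress element. Among the 60 of 81 members matched by symbol in the sequence table, 4 held the first (Hspd1, Hspe1, Dnajb6 and Hsph1) and 3 the second (Hspa5, Hsp90b1 and Dnajc3). The remaining members were not searched, so a gene not listed here need not lack an element. Hspd1 and Hspe1, which lie head to head, share 1 stretch, in which both forms of the element overlap. It is printed on the strand of Hspd1, and Hspe1, on the plus strand, reads its reverse complement. Each stretch runs 5′ to 3′ on the strand given, with the element in capitals and 20 bases on each side, and a match is a sequence description, not a bound site.
Hspd1 (shared with Hspe1), chr1:55088039-55088096, minus strand: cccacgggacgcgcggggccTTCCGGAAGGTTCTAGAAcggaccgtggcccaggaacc
Dnajb6, chr5:29735832-29735884, plus strand: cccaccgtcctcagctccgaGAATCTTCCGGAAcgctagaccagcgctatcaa
Hspa5, chr2:34772005-34772063, plus strand: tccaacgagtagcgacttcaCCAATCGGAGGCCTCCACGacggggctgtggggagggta
Hsp90b1, chr10:86705513-86705676, minus strand: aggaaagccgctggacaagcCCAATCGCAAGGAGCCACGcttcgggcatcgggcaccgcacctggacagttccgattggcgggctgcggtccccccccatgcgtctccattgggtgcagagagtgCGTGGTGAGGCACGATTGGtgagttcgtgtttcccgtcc
Dnajc3, chr14:118937807-118937865, plus strand: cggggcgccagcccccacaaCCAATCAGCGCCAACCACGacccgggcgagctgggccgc
The fourth gene with a heat shock element, Hsph1, has it just after its start as TTCTGGAAAGTTC. Under TAC, Dnajb6 and Dnajc3 were called higher in both genotypes, Hspd1 and Hspa5 lower in both, Hspe1 lower in wild type hearts, and Hsph1 and Hsp90b1 were not called. Under median-of-ratios scaling and quantile normalization, which are alternatives to the deposited scaling, Dnajb6 was not called in wild type hearts nor Dnajc3 in KO hearts.

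Values were FPKM, fragments scaled to transcript length and to the fragments mapped in the library, which allows levels of different genes to be compared. The depth behind each library is unknown, since the files hold no counts. Groups were compared with limma on log2(FPKM + 1) in one fit over all 64 hearts, a gene was tested when at least 4 hearts had an FPKM of at least 1 (13653 genes), and a gene was called at a Benjamini-Hochberg adjusted p under 0.05 over all genes tested. Differences are given on that log2 scale with their SE, and adding 1 understates the change of genes near or under 1 FPKM. Of the members, 69 were tested. The other 12 stayed under 1 FPKM in all hearts: Dnajb3, Dnajb7, Dnajb8, Dnajb13, Dnajc5b, Dnajc5g, Dnajc6, Dnajc22, Hspb9, Hspbap1, Dnaja1-ps and Hspe1-ps4, the highest being Hspbap1 with at most 0.874 FPKM. A listed 0 may also be a failed estimate, since Myh6, the main myosin of the adult mouse heart, was listed at 0 in 4 hearts and between 1089 and 4252 FPKM in the others. Among members above 5 FPKM at the median, 0 were listed at 0 in any heart.

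Some facts of the whole series bear on all results. Ndufs4 itself had medians of 26.8 FPKM in KOTAC and 29.4 FPKM in KOSH hearts, against 97.0 FPKM in WTTAC and 111 FPKM in WTSH hearts, with no overlap between genotypes. In 4 libraries of week 2 (hearts 3 and 4 of KOTAC and of WTTAC) long transcripts were depleted: deviations from the gene means had slopes of -0.213 to -0.189 log2 per doubling of transcript length, against -0.0745 to 0.0642 in the other 60. Under TAC the median gene moved by 0.13 in KO hearts and by 0.14 in wild type hearts on the log2 scale, and more genes were called higher (48.0% and 48.2%) than lower (14.0% and 11.7%). With median-of-ratios scaling that shift was 0.00 in both, and the split became 29.8% higher and 29.6% lower in KO hearts, and 28.4% and 27.8% in wild type hearts. Markers of other cells moved with TAC: the summed level of 6 fibroblast markers was 444 to 1613 FPKM in KOTAC against 197 to 342 FPKM in KOSH hearts, and 314 to 1990 FPKM in WTTAC against 213 to 379 FPKM in WTSH hearts. All 6 were called higher in both genotypes, as were 4 of 5 endothelial and 4 of 5 macrophage markers, while the 7 cardiomyocyte markers moved in both directions. Of these, 2 were higher and 3 lower in KO hearts, and 2 were higher and 2 lower in wild type hearts. The higher ones were Actn2 (0.27 in KO and 0.23 in wild type hearts) and Nppa, a natriuretic peptide gene known to be induced by load (4.22 and 3.68), and the lower ones included Tnni3 (-0.51 and -0.42) and Ryr2 (-0.50 and -0.41). Their summed level, in which the rise of Nppa is included, had medians of 25846 FPKM in KOTAC against 24615 FPKM in KOSH hearts, and of 25971 FPKM in WTTAC against 26062 FPKM in WTSH hearts. The part of these cell type and length differences in the chaperone results was not tested, apart from values given without the 4 libraries.

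The first comparison asks how the chaperones responded to TAC within each genotype. In KOTAC against KOSH hearts 45 of the 69 members were called, 34 higher and 11 lower, against 62.0% of all genes tested. In WTTAC against WTSH hearts 41 were called, 31 higher and 10 lower, against 59.9% of all genes. As a whole the members thus did not stand apart from the background, and their median difference (0.12 in KO and 0.13 in wild type hearts) was close to that of all genes. Between compartments the directions differed. Of 32 tested members in the cytosol and nucleus, 23 were higher and 0 lower in KO hearts (median 0.31), and 22 were higher and 0 lower in wild type hearts (median 0.25). Of 14 in the ER, 7 were higher and 2 lower in each genotype. Of 10 in mitochondria, 1 was higher and 5 were lower in each genotype (medians -0.18 in KO and -0.14 in wild type hearts). The comparisons of the 2 genotypes share no hearts, and between them 31 members were higher in both, 9 lower in both and 0 in opposite directions. The share of all genes called alike in both genotypes was not computed. In single comparisons 48.0% of all genes were called higher in KO hearts and 48.2% in wild type hearts.

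**Figure D1:**
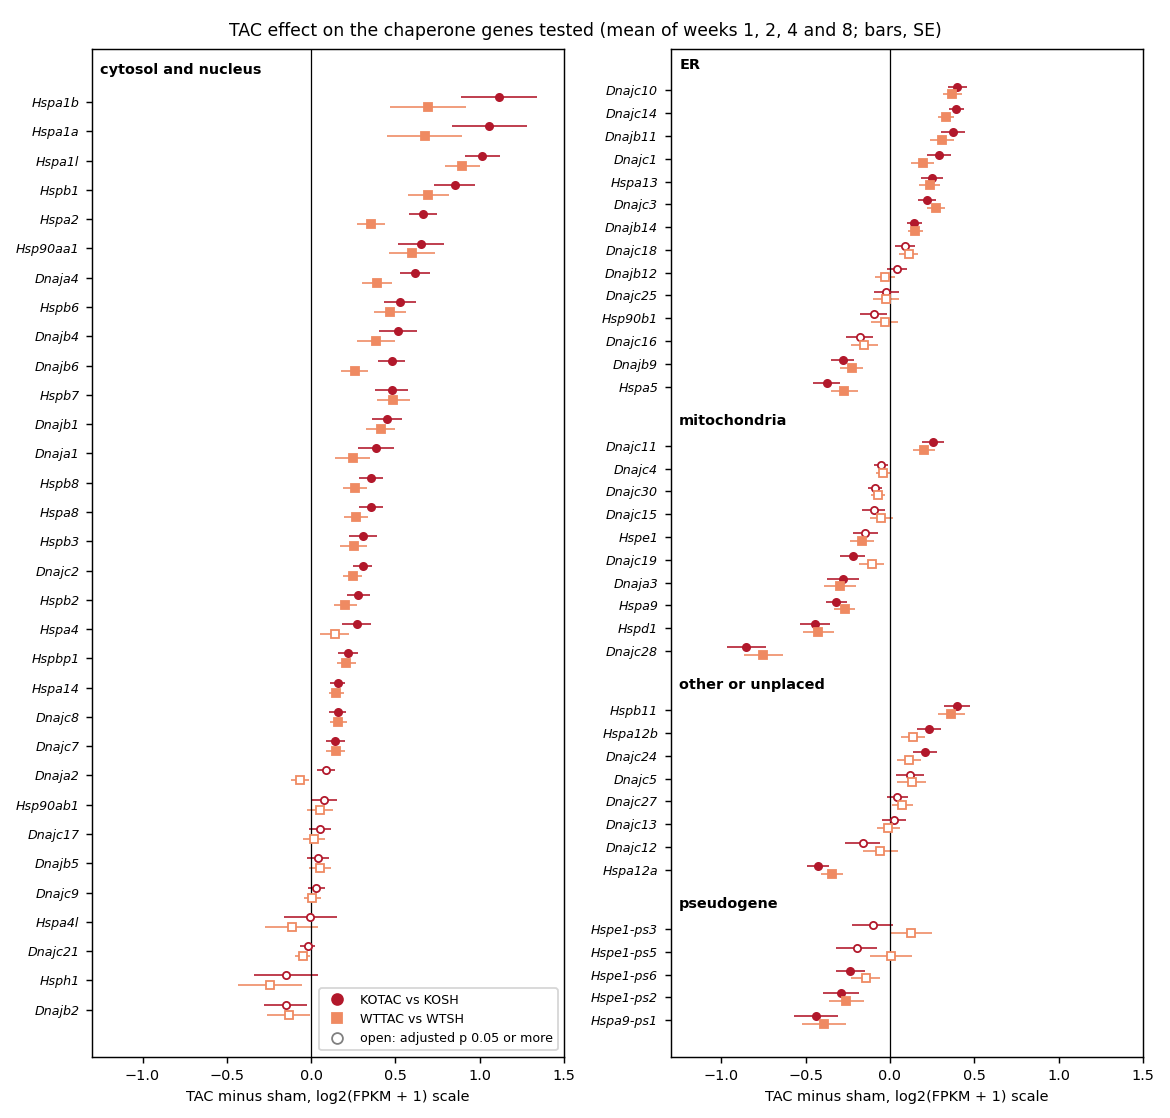
The TAC effect on the 69 members tested, as the difference on the log2(FPKM + 1) scale (x axis) with its SE, averaged over the 4 weeks, for KOTAC against KOSH hearts (circles) and WTTAC against WTSH hearts (squares). Filled symbols passed an adjusted p of 0.05: 23 and 22 of the 32 members in the cytosol and nucleus lie to the right of 0 and none to the left, while 5 of 10 mitochondrial members in each genotype lie to the left.

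The compartment split depended on scaling in its size. With median-of-ratios scaling the cytosolic members were 16 higher and 3 lower in KO hearts and 11 higher and 4 lower in wild type hearts, which is 50% and 34.4% higher against 29.8% and 28.4% of all genes. In wild type hearts this share was close to the background. The ER members became 5 higher and 6 lower in KO hearts and 4 higher and 6 lower in wild type hearts. The mitochondrial members became 0 higher and 9 lower of 10 in each genotype. Called in the same direction in both genotypes as deposited, under median-of-ratios scaling, under quantile normalization and without the 4 libraries of week 2 were 14 members higher (Dnaja4, Dnajb1, Dnajb11, Dnajc10, Dnajc14, Hsp90aa1, Hspa1a, Hspa1b, Hspa1l, Hspa2, Hspb1, Hspb6, Hspb7 and Hspb11) and 8 lower (Dnaja3, Dnajb9, Dnajc28, Hspa5, Hspa9, Hspa12a, Hspd1 and the pseudogene Hspa9-ps1). The share of all genes called this way was not computed.

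Small heat shock proteins held the 2 most abundant members and rose with TAC in both genotypes. Hspb7, an abundant small heat shock protein of heart and skeletal muscle (mm9, chr4:140976694-140981226, plus strand), had the highest median of all members, 808 FPKM over the 64 hearts, ahead of Hspb6 with 578 FPKM. All 6 that were tested (Hspb1, Hspb2, Hspb3, Hspb6, Hspb7 and Hspb8) were called higher in both genotypes, with medians of 0.42 in KO and 0.36 in wild type hearts. Under median-of-ratios scaling 4 of them were higher in KO hearts (Hspb1, Hspb6, Hspb7 and Hspb8) and 3 in wild type hearts (without Hspb8). Without the 4 libraries of week 2, Hspb2 was not called in wild type hearts, which left 5.

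Hspb1, the mouse counterpart of human Hsp27, which binds and protects actin filaments (chr5:136363789-136365433, plus strand), had a lowest, median and highest level of 97.2, 156 and 265 FPKM in KOTAC hearts, against 68.0, 79.2 and 161 FPKM in KOSH hearts. It had 96.8, 144 and 251 FPKM in WTTAC hearts, against 62.9, 83.7 and 126 FPKM in WTSH hearts. The ranges overlapped in both genotypes, and 2 KOSH hearts were far above the others of their group, heart 2 of week 2 with 144 FPKM and heart 1 of week 4 with 161 FPKM. The TAC effect was 0.85 ± 0.12 in KO hearts (SE, limma adjusted p = 4.6e-08) and 0.70 ± 0.12 in wild type hearts (limma adjusted p = 3.2e-06). Week by week the KO and wild type mean was 0.88, 0.85, 0.56 and 0.81 at weeks 1, 2, 4 and 8, and the test of a difference between weeks gave an adjusted p of 0.60.

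Hspb6, the small heat shock protein Hsp20 that is phosphorylated by protein kinase A in cardiomyocytes, had a lowest, median and highest level of 555, 779 and 1048 FPKM in KOTAC hearts, against 462, 504 and 825 FPKM in KOSH hearts. In WTTAC hearts it had 435, 766 and 996 FPKM, against 431, 538 and 598 FPKM in WTSH hearts. Its TAC effect was 0.53 ± 0.09 in KO hearts and 0.47 ± 0.09 in wild type hearts. At weeks 1 and 8 it was 0.48 and 0.55, a difference smaller than the SE of 0.13 at a single week (adjusted p = 0.98). Hspb8, which works with the co-chaperone Bag3 in clearing damaged proteins, had medians of 331 FPKM in KOTAC against 249 FPKM in KOSH hearts, and of 307 FPKM in WTTAC against 252 FPKM in WTSH hearts. It rose by 0.36 ± 0.07 in KO hearts and 0.26 ± 0.07 in wild type hearts, and Bag3 itself rose by 0.33 and 0.26. Cryab, the αB-crystallin of the same protein family that the symbol rule does not take, rose by 0.34 in KO hearts and by 0.26 in wild type hearts.

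Hspb7 rose by 0.48 ± 0.10 in KO hearts and 0.49 ± 0.10 in wild type hearts, and its week 2 value rested on the length-depleted libraries. At week 1 it had 960, 923, 1004 and 1174 FPKM in KOTAC hearts, against 633, 700, 697 and 737 FPKM in KOSH hearts. In wild type hearts of week 1 it had 894, 1052, 1301 and 1240 FPKM after TAC, against 598, 633, 589 and 553 FPKM after sham surgery. All TAC hearts of week 1 were above all sham hearts of that week. The share of all genes that separate in this way at a single week was not computed, here or for the genes below. At week 2 the KOTAC hearts had 1013, 1056, 671 and 491 FPKM and the WTTAC hearts 908, 1090, 326 and 646 FPKM, against 593 to 741 FPKM in KOSH and 703 to 759 FPKM in WTSH hearts. The 4 low TAC values were those of hearts 3 and 4, the length-depleted libraries, and the other 4 TAC hearts were above all sham hearts. The TAC effect at week 2 was 0.05 with all hearts and 0.54 ± 0.11 without those libraries, against 0.73 ± 0.14 at week 1 and 0.77 ± 0.14 at week 8. The difference between weeks kept an adjusted p of 0.031 without them, against 0.0069 with all hearts.

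**Figure D2:**
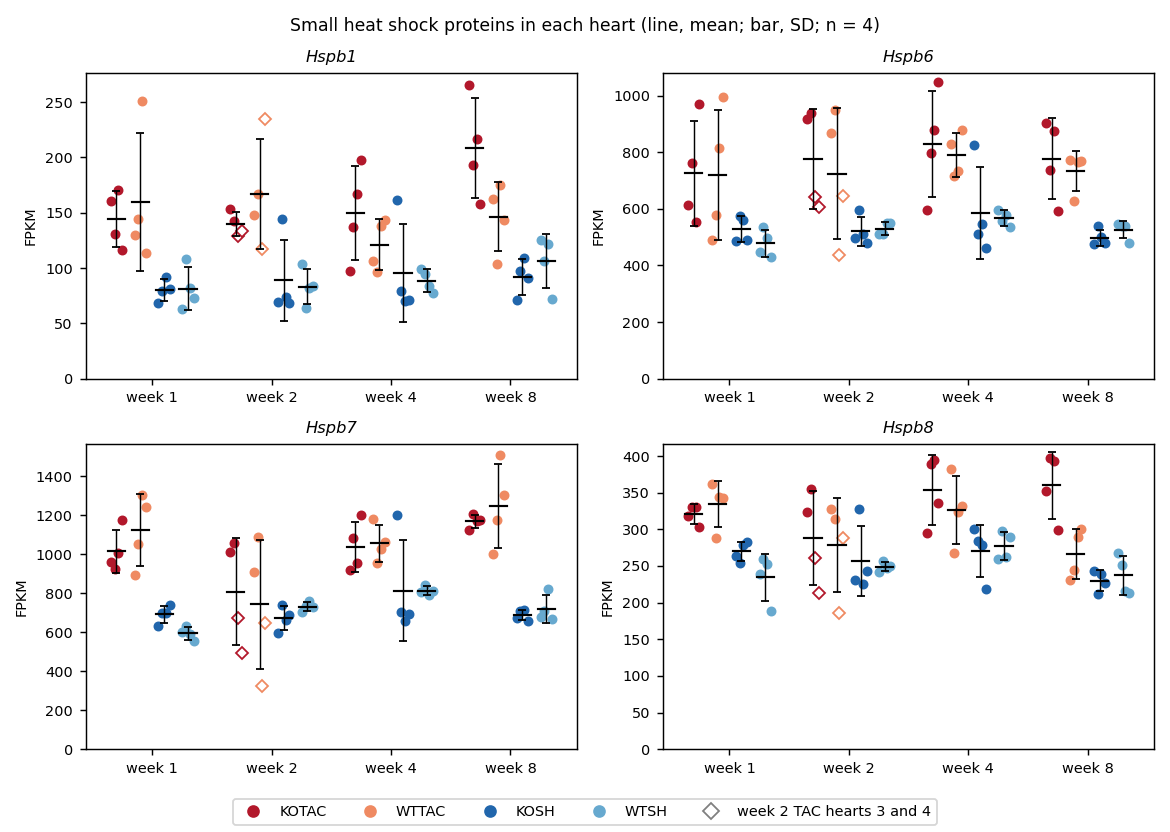
FPKM (y axis, from 0) of 4 small heat shock proteins in each heart by week, with KOTAC, WTTAC, KOSH and WTSH hearts from left to right within a week. Lines are group means and bars the SD of 4 hearts, and open diamonds mark the 4 length-depleted libraries, in which Hspb7 fell to between 326 and 671 FPKM while the other TAC hearts of week 2 had 908 to 1090 FPKM.

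Among cytosolic Hsp70 genes the constitutive and the stress-inducible members rose to very different degrees. Hspa8, the constitutive Hsc70, had medians of 247 FPKM in KOTAC against 196 FPKM in KOSH hearts, and of 240 FPKM in WTTAC against 203 FPKM in WTSH hearts. It rose by 0.35 ± 0.07 in KO hearts and 0.27 ± 0.07 in wild type hearts. With median-of-ratios scaling the wild type value was 0.10 with an adjusted p of 0.18. Hspa8 reached its highest values in KOTAC heart 5 of week 4 with 367 FPKM and KOTAC heart 2 of week 8 with 368 FPKM.

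Hspa1l, an Hsp70 gene best known from the testis, had the smallest p of all members in both TAC comparisons, although it was low in these hearts. At week 8 it had 7.01, 9.34, 8.63 and 7.26 FPKM in KOTAC hearts, against 1.97, 1.96, 2.42 and 1.91 FPKM in KOSH hearts. It had 5.52, 5.27, 8.53 and 6.90 FPKM in WTTAC hearts of that week, against 1.78, 1.82, 2.11 and 1.61 FPKM in WTSH hearts. All TAC hearts of week 8 were above all sham hearts of that week. Its TAC effect was 1.02 ± 0.11 in KO hearts (limma adjusted p = 1.3e-11) and 0.90 ± 0.11 in wild type hearts (limma adjusted p = 5.9e-10). By week it was 0.96, 0.64, 0.74 and 1.48 at weeks 1, 2, 4 and 8, and the weeks differed (adjusted p = 0.0051 with all hearts and 0.0021 without the 4 libraries of week 2).

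The paired stress-inducible genes Hspa1a and Hspa1b, which encode nearly the same Hsp70 protein and are barely expressed in an unstressed heart, varied more between hearts of a group than any other tested member (within-group SD of 0.65 and 0.67 on the log2 scale, against 0.55 for Hsph1, the next). All 3 genes lie together on chromosome 17 of mm9, Hspa1b at 35093381-35096183 and Hspa1a at 35106144-35109069 on the minus strand, and Hspa1l at 35109648-35116229 on the plus strand. Of the 50-base stretches of Hspa1a, 59.4% also occur in Hspa1b and 8.06% in Hspa1l, and only uniquely placed reads were kept, so the split of reads between Hspa1a and Hspa1b is uncertain. Exons of Hspa1l overlap those of a gene on the opposite strand over 72.0% of their length, and whether strand was used in counting is not given in the sources used here.

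At week 8 Hspa1b had 13.7, 3.20, 15.7 and 2.28 FPKM in KOTAC hearts, against 0.720, 0.702, 0.726 and 0.843 FPKM in KOSH hearts. In WTTAC hearts of week 8 it had 14.5, 1.5, 4.86 and 1.76 FPKM, against 0.985, 0.861, 1.34 and 0.674 FPKM in WTSH hearts. Every TAC heart was above every sham heart of that week, and 3 TAC hearts (2 and 4 of KOTAC, 2 of WTTAC) stood far above the others. At week 4 the KOTAC hearts had 1.10, 1.44, 1.80 and 13.7 FPKM, against 5.49, 0.501, 0.642 and 0.711 FPKM in KOSH hearts. There 1 heart in each group was high and the ranges overlapped. Hspa1a had the same hearts at the top, with 12.2 and 13.9 FPKM in KOTAC hearts 2 and 4 and 13.6 FPKM in WTTAC heart 2 of week 8.

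The TAC effect of Hspa1b was 1.11 ± 0.23 in KO hearts and 0.69 ± 0.23 in wild type hearts, and that of Hspa1a 1.06 ± 0.22 and 0.67 ± 0.22 (limma adjusted p between 3.5e-05 and 0.0082). At week 8 both reached 1.74 ± 0.32. A difference between weeks was called for both with all hearts (adjusted p = 0.043 for Hspa1a and 0.047 for Hspa1b), and not without the 4 libraries of week 2 (0.094 and 0.11). Under median-of-ratios scaling it was not called for Hspa1b (0.054). In some groups a single heart was the highest for most of a set of inducible and other chaperone genes, the constitutive Hspa8 among them. Of 8 genes compared (Hspa1a, Hspa1b, Hspa1l, Dnajb1, Hspa8, Hspb1, Hsph1 and Hsp90aa1), 8 were highest of their group in WTTAC heart 4 of week 1, and 7 in each of KOTAC heart 5 of week 4, KOSH heart 2 of week 2, KOSH heart 1 of week 4 and KOSH heart 3 of week 8. Other groups were split, such as WTTAC hearts 1, 2, 3 and 4 of week 2, which were highest for 4, 2, 0 and 2 genes. The genes compared share a library, so this is a description of hearts and not a test. The immediate early genes, which respond within minutes to stimuli and handling, were called higher with TAC for 7 of 9 tested in each genotype, against 48.0% of all genes in KO and 48.2% in wild type hearts, and their part in the level of the inducible chaperones was not tested.

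**Figure D3:**
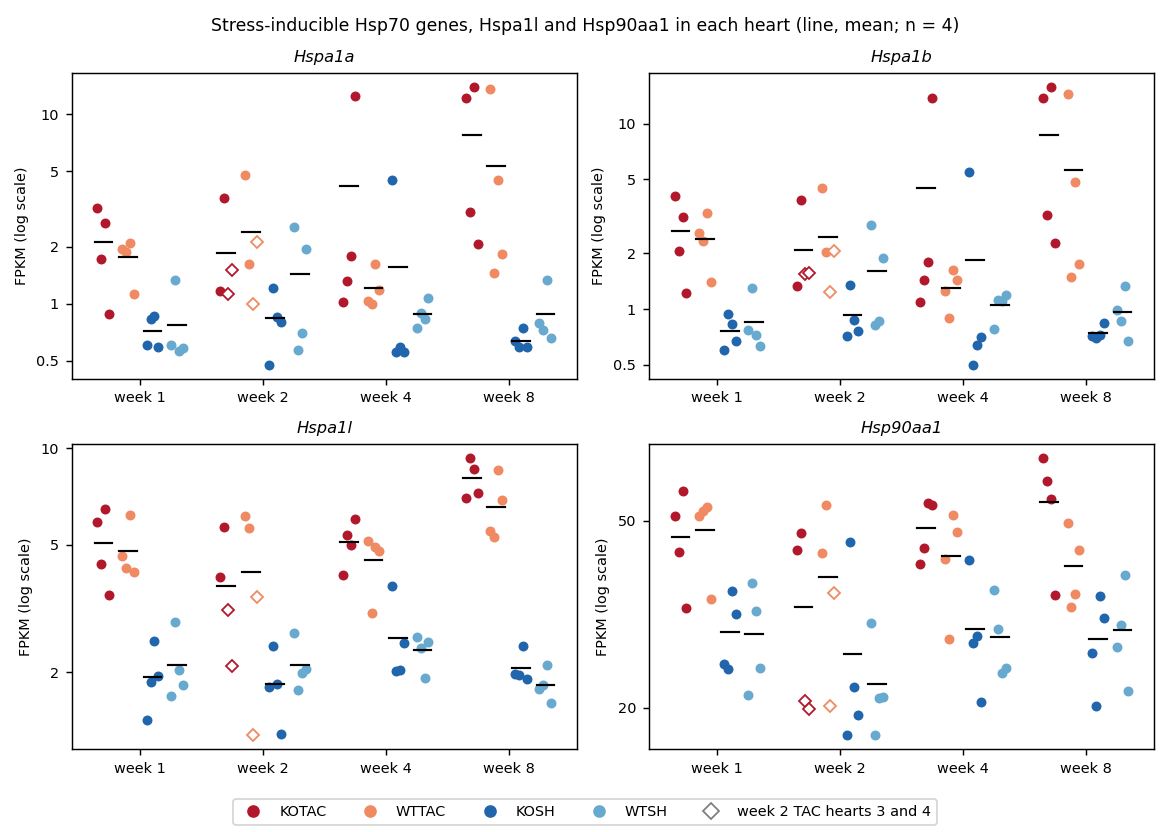
FPKM (y axis, log scale) of Hspa1a, Hspa1b, Hspa1l and Hsp90aa1 in each heart by week, with KOTAC, WTTAC, KOSH and WTSH hearts from left to right within a week, lines for the means of 4 hearts and open diamonds for the 4 length-depleted libraries. At week 8 all TAC hearts lie above all sham hearts for the Hspa1 genes, but Hspa1b spreads from 1.5 to 15.7 FPKM over the TAC hearts and Hspa1l only from 5.27 to 9.34 FPKM.

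Hspa2, an Hsp70 known for its need in sperm development, had medians of 3.71 FPKM in KOTAC against 1.85 FPKM in KOSH hearts, and of 2.55 FPKM in WTTAC against 1.89 FPKM in WTSH hearts. It rose by 0.66 ± 0.08 in KO hearts and 0.35 ± 0.08 in wild type hearts. The Hsp110 proteins, which release ADP from Hsp70, were mixed: Hspa4 rose in KO hearts by 0.27 (0.10 with an adjusted p of 0.25 under median-of-ratios scaling) and had a difference of 0.14 in wild type hearts (adjusted p = 0.16), while Hsph1 had -0.15 and -0.24 with a large spread between hearts (5.43 to 36.8 FPKM in KOTAC against 9.62 to 41.1 FPKM in KOSH hearts, adjusted p = 0.51 and 0.27).

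Of the cytosolic Hsp90 pair, the inducible gene rose and the abundant constitutive gene was not called. Hsp90aa1 (chr12:111928815-111940938, minus strand) had a lowest, median and highest level of 19.8, 45.4 and 68.2 FPKM in KOTAC hearts, against 17.5, 26.8 and 45.1 FPKM in KOSH hearts. It had 20.1, 43.1 and 54.1 FPKM in WTTAC hearts, against 17.5, 25.7 and 38.3 FPKM in WTSH hearts. The ranges overlapped, and the median TAC heart lay above the highest sham heart of its genotype. The TAC effect was 0.65 ± 0.14 in KO hearts and 0.60 ± 0.14 in wild type hearts, and 0.79 and 0.70 without the 4 libraries of week 2. Hsp90ab1 had medians of 372 FPKM in KOTAC against 334 FPKM in KOSH hearts, and of 369 FPKM in WTTAC against 358 FPKM in WTSH hearts. Its differences were 0.08 ± 0.08 and 0.05 ± 0.08. Without the 4 libraries the KO difference was 0.17 with an adjusted p of 0.013, so this value depended on them.

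Several J-domain partners of cytosolic Hsp70 rose. Dnaja4 (chr9:54546680-54564122, plus strand) had 69.6, 80.6, 67.4 and 74.5 FPKM in KOTAC hearts of week 8, against 33.9, 34.9, 36.9 and 37.4 FPKM in KOSH hearts. In wild type hearts of week 8 it had 49.7, 44.8, 66.4 and 62.2 FPKM after TAC, against 43.0, 44.3, 35.1 and 36.0 FPKM after sham surgery. TAC hearts were above sham hearts throughout, with a wide gap in KO hearts and almost none in wild type hearts. Over the 4 weeks its TAC effect was 0.62 ± 0.09 in KO hearts and 0.39 ± 0.09 in wild type hearts. Exons of Dnaja4 overlap those of Wdr61 on the opposite strand over 44.1% of their length, so its reads may be shared.

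Dnajb4 at week 8 had 79.3, 65.3, 66.6 and 53.8 FPKM in KOTAC hearts, against 36.3, 29.3, 34.6 and 35.1 FPKM in KOSH hearts. In WTTAC hearts of week 8 it had 57.3, 53.6, 62.5 and 60.9 FPKM, against 33.5, 34.9, 33.7 and 34.8 FPKM in WTSH hearts. The groups were fully apart at week 8, where the TAC effect was 0.85 ± 0.16. Under median-of-ratios scaling its effect over the 4 weeks was called in KO hearts (0.35) and not in wild type hearts (0.22, adjusted p = 0.066). At week 2 the 4 length-depleted hearts had 15.9 to 28.7 FPKM and the other 4 TAC hearts 53.4 to 67.4 FPKM, and the TAC effect was 0.03 with all hearts and 0.69 ± 0.10 without those libraries. Dnajb1, the main stress-inducible J-domain protein, rose by 0.45 ± 0.09 in KO hearts and 0.41 ± 0.09 in wild type hearts. Dnajb6, which keeps aggregating proteins soluble, rose by 0.48 ± 0.08 in KO hearts and 0.26 ± 0.08 in wild type hearts, but the wild type value was 0.09 with an adjusted p of 0.29 under quantile normalization and 0.10 with an adjusted p of 0.25 under median-of-ratios scaling. Dnaja2, the most abundant cytosolic J-domain gene with a median of 82.1 FPKM, was not called in either comparison (0.09 in KO and -0.07 in wild type hearts) and was called lower in wild type hearts under median-of-ratios scaling (-0.23), but its TAC effect differed between weeks with and without the 4 libraries (adjusted p = 0.00048 and 0.012) and was 0.26 at week 8.

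Of 20 cytosolic co-chaperones tested, which serve these proteins, 8 were higher and 2 lower in KO hearts, against 48.0% and 14.0% of all genes. In wild type hearts 7 were higher and 2 lower, against 48.2% and 11.7%. These shares were not above the background, and with median-of-ratios scaling the counts were 6 higher and 5 lower in KO hearts and 1 higher and 8 lower in wild type hearts. The higher ones included Bag5, a nucleotide exchange factor of Hsp70 (0.36 in KO and 0.34 in wild type hearts), and Sugt1, an Hsp90 adaptor (0.32 and 0.24). Fkbp4, a peptidyl-prolyl isomerase that binds Hsp90 in steroid receptor complexes, fell by 1.06 in KO hearts and by 0.80 in wild type hearts. Of the 8 subunits of the CCT chaperonin, which folds actin and tubulin, 5 were higher and 0 lower in each genotype, among them Cct3 (0.40 in KO and 0.36 in wild type hearts), and with median-of-ratios scaling 2 were higher and 1 lower in each. The 3 heat shock factors Hsf1, Hsf2 and Hsf4 were not called in either genotype, with differences from -0.04 to 0.09.

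In the ER the binding protein BiP fell while several of its J-domain partners rose. Hspa5, which encodes BiP (chr2:34627490-34632051, plus strand), had a lowest, median and highest level of 95.3, 155 and 185 FPKM in KOTAC hearts, against 130, 198 and 316 FPKM in KOSH hearts. In WTTAC hearts it had 116, 177 and 251 FPKM, against 140, 215 and 299 FPKM in WTSH hearts. The ranges overlapped widely in both genotypes. Its TAC effect was -0.38 ± 0.08 in KO hearts (limma adjusted p = 8.1e-05) and -0.27 ± 0.08 in wild type hearts (limma adjusted p = 0.0037). It stayed called without the 4 libraries of week 2, at -0.30 and -0.22, although at week 2 the effect was -0.27 with all hearts and -0.02 without those libraries. Hsp90b1, the ER Hsp90 (Grp94), had medians of 95.2 FPKM in KOTAC against 102 FPKM in KOSH hearts, and of 109 FPKM in WTTAC and in WTSH hearts, with differences of -0.10 ± 0.08 and -0.03 ± 0.08 that were not called. Under median-of-ratios scaling it was called lower, at -0.27 and -0.20 (adjusted p = 0.0010 and 0.014).

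Hspa5 was also the only member whose sham hearts differed between weeks (adjusted p = 0.029), against 1.22% of all genes. Its sham levels at week 2 were 174, 192, 139 and 130 FPKM in KOSH and 213, 177, 140 and 144 FPKM in WTSH hearts. At week 4 they were 216, 226, 163 and 219 FPKM in KOSH and 289, 293, 222 and 200 FPKM in WTSH hearts, higher as a group but with overlap. This call was lost when any of 5 single hearts was left out (hearts 3 and 4 of KOSH or WTSH at week 2, or heart 2 of WTSH at week 4) and under quantile normalization, which gave 0 members. It was also lost with the replicate number as a block, where Dnajb1, Hspa1a and Hspa1b were called instead.

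Dnajc10, also called ERdj5, a disulfide reductase that opens misfolded proteins for export from the ER (chr2:80155623-80194200, plus strand), was among the clearest early changes. At week 1 it had 16.5, 13.5, 19.9 and 12.3 FPKM in KOTAC hearts, against 9.74, 9.77, 10.3 and 9.79 FPKM in KOSH hearts. It had 18.5, 20.4, 20.2 and 14.2 FPKM in WTTAC hearts, against 10.5, 10.4, 9.10 and 8.17 FPKM in WTSH hearts. All TAC hearts of week 1 were above all sham hearts, a week at which 62.4% of all genes were called. The TAC effect was 0.72 ± 0.08 at week 1, 0.18 at week 2, 0.21 at week 4 and 0.43 ± 0.08 at week 8, and the weeks differed with and without the 4 libraries (adjusted p = 0.00037 and 0.0011).

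Dnajb11 (ERdj3), a soluble BiP partner, had 32, 27.9, 33.9 and 21.4 FPKM in KOTAC hearts of week 1, against 20.1, 19.0, 21.1 and 22.8 FPKM in KOSH hearts. In WTTAC hearts of week 1 it had 33.6, 35.3, 30.8 and 23.5 FPKM, against 22.6, 26.1, 22.4 and 19.1 FPKM in WTSH hearts. In each genotype 3 TAC hearts were above all sham hearts of the week and 1 was within their range. Its overall TAC effect was 0.37 ± 0.07 in KO hearts and 0.31 ± 0.07 in wild type hearts. Dnajc14, an ER membrane J-domain protein, rose by 0.39 ± 0.05 and 0.33 ± 0.05, although its exons overlap Ormdl2 on the opposite strand over 36.5% of their length. Dnajc3 (p58IPK), which restrains the ER stress kinase Perk, rose by 0.22 ± 0.05 and 0.28 ± 0.05, but under median-of-ratios scaling the KO value was 0.07 with an adjusted p of 0.19. Dnajb9 (ERdj4), which guides BiP to the stress sensor Ire1, fell in both genotypes, by 0.28 ± 0.07 in KO hearts and by 0.23 ± 0.07 in wild type hearts.

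Of 24 other ER folding genes tested, 13 were higher and 2 lower in KO hearts, against 48.0% and 14.0% of all genes, and 15 were higher and 2 lower in wild type hearts, against 48.2% and 11.7%. The share in KO hearts was near the background. With median-of-ratios scaling the counts were 10 higher and 5 lower in KO hearts and 11 higher and 4 lower in wild type hearts. The collagen chaperone Serpinh1 rose by 0.93 in KO hearts and by 0.83 in wild type hearts, and the disulfide isomerase P4hb, which is also a subunit of the collagen prolyl hydroxylase, by 0.66 and 0.61. Both serve collagen, which fibroblasts make, and the fibroblast markers moved with them (median 1.06 in KO and 0.99 in wild type hearts), a part that was not tested. Lower were Canx, the lectin chaperone calnexin, by 0.38 and 0.32, and Herpud1, an ER stress-inducible degradation factor, by 0.68 and 0.72.

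**Figure D4:**
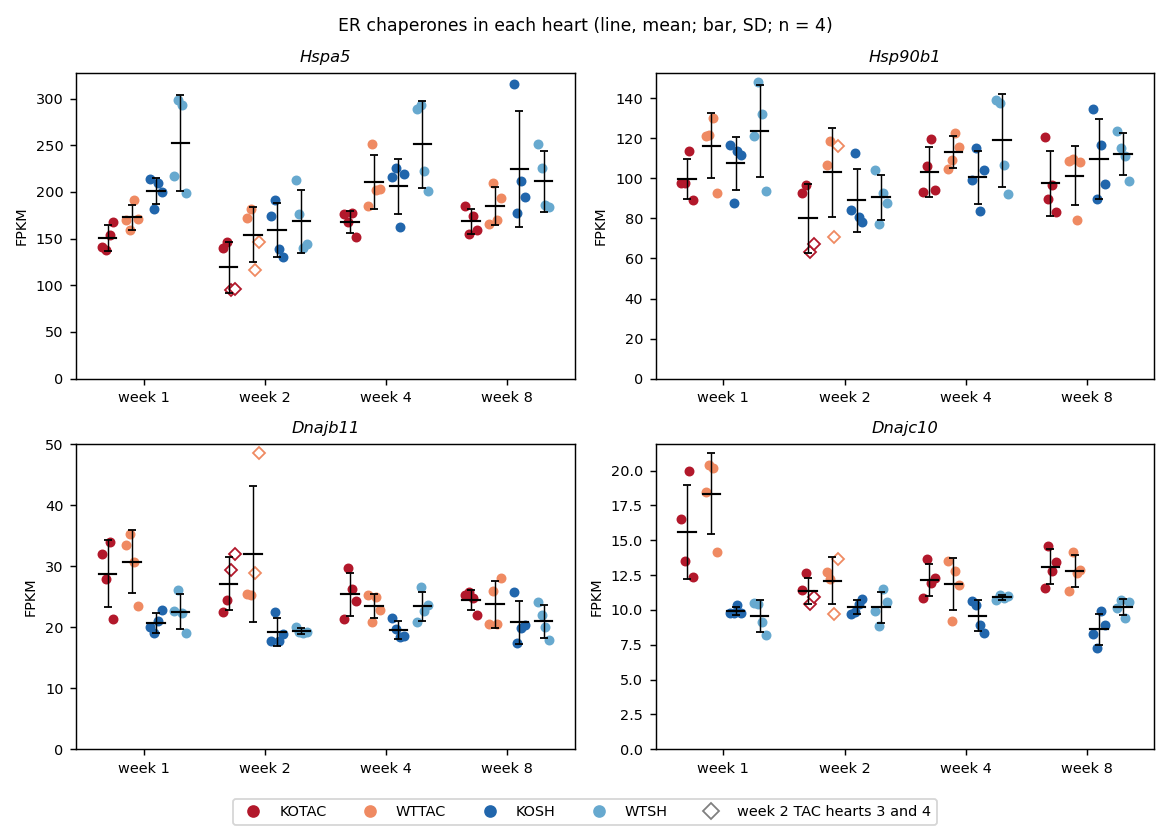
FPKM (y axis, from 0) of Hspa5, Hsp90b1, Dnajb11 and Dnajc10 in each heart by week, with KOTAC, WTTAC, KOSH and WTSH hearts from left to right within a week, means as lines, SD of 4 hearts as bars and the 4 length-depleted libraries as open diamonds. Dnajc10 of week 1 is at 12.3 to 20.4 FPKM in TAC hearts and at 8.17 to 10.5 FPKM in sham hearts, while the Hspa5 ranges overlap.

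With 1 exception, the mitochondrial members that were called fell. Dnajc28, a mitochondrial J-domain protein (chr16:91614502-91619271, minus strand), had the largest fall of all members. It had a lowest, median and highest level of 2.56, 9.18 and 13.0 FPKM in KOTAC hearts, against 13.6, 14.9 and 20.7 FPKM in KOSH hearts. In WTTAC hearts it had 4.74, 10.1 and 14.8 FPKM, against 13.6, 16.6 and 21.1 FPKM in WTSH hearts. It was the only member whose KOTAC and KOSH hearts did not overlap, against 3.33% of all genes tested, and 0 members were free of overlap in wild type hearts, against 0.322% of all genes. Its TAC effect was -0.85 ± 0.12 in KO hearts (limma adjusted p = 2.1e-08) and -0.75 ± 0.12 in wild type hearts (limma adjusted p = 4.0e-07), and -0.66 and -0.60 without the 4 libraries of week 2. With the deposited scaling and as the mean over genotypes, it was the only mitochondrial member called at each week. These means were -0.77, -1.17, -0.48 and -0.78 for weeks 1, 2, 4 and 8.

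Hspd1, the chaperonin Hsp60 that encloses proteins in the mitochondrial matrix (chr1:55134679-55145087, minus strand), had a lowest, median and highest level of 33.0, 66 and 92.1 FPKM in KOTAC hearts, against 72.0, 86.2 and 106 FPKM in KOSH hearts. In WTTAC hearts it had 51.9, 66.7 and 97.8 FPKM, against 78.3, 90.7 and 101 FPKM in WTSH hearts. Most TAC hearts were below the sham range, and a few were inside it. The TAC effect was -0.44 ± 0.09 in KO hearts and -0.42 ± 0.09 in wild type hearts, and -0.31 and -0.33 without the 4 libraries. At week 2 the 4 length-depleted hearts had 33.0 to 53.7 FPKM, and without them the TAC effect of that week was -0.01, against -0.48 with them. At week 8 it was -0.53 ± 0.13, with 82.9, 66.6, 62.6 and 47.1 FPKM in KOTAC against 85.4, 77.2, 85.2 and 85.2 FPKM in KOSH hearts.

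Hspe1, the lid Hsp10 of the same chaperonin, is read from the neighbouring start (chr1:55144976-55148151, plus strand) and changed less. Its median was 42.1 FPKM in KOTAC against 46.6 FPKM in KOSH hearts, and 42.4 FPKM in WTTAC against 47.9 FPKM in WTSH hearts. The difference was -0.15 ± 0.07 in KO hearts, which was not called (adjusted p = 0.081), and -0.17 ± 0.07 in wild type hearts with an adjusted p of 0.049, a call that was lost in 36 of the 64 fits that left out 1 heart. At weeks 1 and 8 it was called lower, at -0.32 each. At week 2, with all hearts, Hspe1 was called higher in wild type hearts (0.35, limma adjusted p = 0.048) and not called in KO hearts (-0.09). The week 2 value without the 4 length-depleted libraries is not given here. Under quantile normalization Hspe1 was called lower over the 4 weeks in both genotypes, at -0.30 in KO hearts and -0.32 in wild type hearts.

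Hspa9, the mitochondrial Hsp70 (mortalin) that drives protein import, had medians of 158 FPKM in KOTAC against 188 FPKM in KOSH hearts, and of 169 FPKM in WTTAC against 183 FPKM in WTSH hearts. It fell by 0.32 ± 0.06 in KO hearts and by 0.27 ± 0.06 in wild type hearts, and by 0.23 and 0.20 without the 4 libraries. Its pseudogene Hspa9-ps1, which shares 6.53% of its 50-base stretches with Hspa9, was listed with a median of 35.4 FPKM and moved the same way (-0.44 and -0.39), and reads of the 2 may be mixed. Dnaja3 (Tid1), the J-domain partner of Hspa9, fell by 0.28 ± 0.09 and 0.30 ± 0.09, but only by 0.14 and 0.16 without the 4 libraries. Dnajc19, a part of the import motor that is mutated in a human cardiomyopathy, fell in KO hearts by 0.22 ± 0.07 and had a difference of -0.11 ± 0.07 in wild type hearts that was not called. Dnajc15, an abundant mitochondrial member, had medians of 89.0 FPKM in KOTAC against 97.8 FPKM in KOSH hearts. In wild type hearts the medians were 97.2 FPKM in WTTAC and 96.4 FPKM in WTSH hearts. It was not called in either genotype as deposited, and was called lower under quantile normalization (-0.25 and -0.19). Dnajc11, which is tied to the complex that shapes the cristae, was the only mitochondrial member that rose, by 0.25 ± 0.07 and 0.20 ± 0.07, and under median-of-ratios scaling it was not called (0.09 and 0.04).

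Of 14 other mitochondrial chaperones and proteases, 1 was higher and 4 were lower in KO hearts, and 2 were higher and 4 lower in wild type hearts, against 14.0% and 11.7% of all genes lower. With median-of-ratios scaling 9 were lower in KO hearts and 11 in wild type hearts. With the deposited scaling the lower ones were the same in both, Clpx and Clpp, the parts of the matrix protease ClpXP, Oma1, a stress-activated inner membrane protease, and Trap1, the mitochondrial Hsp90. Clpx fell by 0.43 in KO hearts and by 0.33 in wild type hearts, and Oma1 by 0.37 and 0.32. The protease Lonp1, which degrades oxidized matrix proteins, rose by 0.29 and 0.17.

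**Figure D5:**
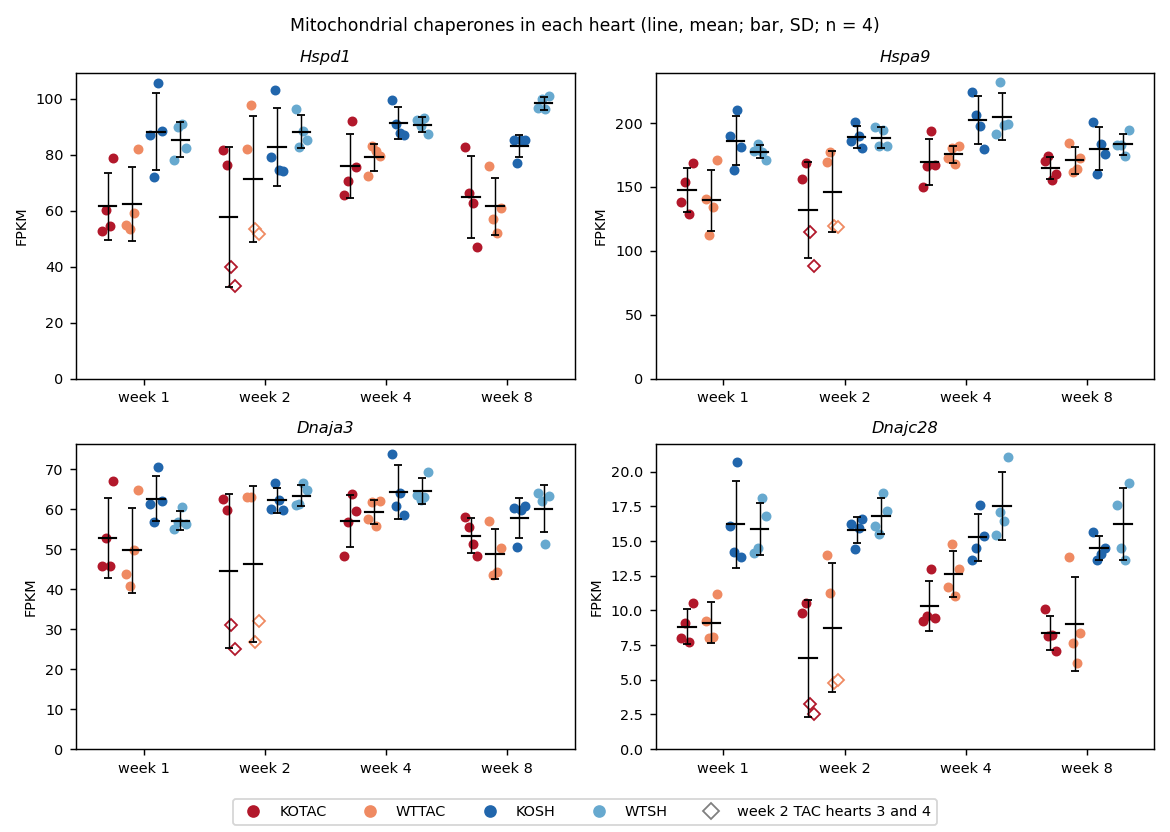
FPKM (y axis, from 0) of Hspd1, Hspa9, Dnaja3 and Dnajc28 in each heart by week, with KOTAC, WTTAC, KOSH and WTSH hearts from left to right within a week, means as lines, SD of 4 hearts as bars and the 4 length-depleted libraries as open diamonds. Those 4 libraries are the lowest TAC hearts of week 2 for each gene, and Dnajc28 is lower after TAC also in the others, with 9.83 to 14.0 FPKM against 14.4 to 18.4 FPKM in sham hearts.

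Among members placed elsewhere, Hspb11 and Hspa12a moved most. Hspb11, known also as Ift25, a part of the transport machinery of cilia rather than a typical chaperone, rose by 0.40 in KO hearts and by 0.36 in wild type hearts. Hspa12a, a distant relative of Hsp70, had medians of 3.02 FPKM in KOTAC against 4.44 FPKM in KOSH hearts, and of 3.78 FPKM in WTTAC against 4.72 FPKM in WTSH hearts, and fell by 0.42 ± 0.07 and 0.35 ± 0.07. Of the 8 tested in this set, 3 were higher and 1 lower in KO hearts, and 1 was higher and 1 lower in wild type hearts. Of 5 tested pseudogenes, 0 were higher and 3 lower in KO hearts, and 0 were higher and 2 lower in wild type hearts.

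The second comparison follows the TAC effect, averaged over genotypes, through time. At week 1, 43 of 69 members were called (34 higher and 9 lower), against 62.4% of all genes (54.5% higher and 7.92% lower). At week 2, 35 were called (18 higher and 17 lower), against 60.4% (39.7% higher and 20.7% lower). At week 4, 12 were called (11 higher and 1 lower), against 15.9% (11.2% higher and 4.75% lower). At week 8, 36 were called (29 higher and 7 lower), against 43.8% (34.2% higher and 9.59% lower). The week 2 counts rest in part on the 4 length-depleted libraries. Without them 47, 27, 24 and 41 members were called at weeks 1, 2, 4 and 8, and the week 2 count became 25 higher and 2 lower, against 32.7% and 7.92% of all genes. The shares of all genes at weeks 1, 4 and 8 without the libraries are not given here. Counts of members at those weeks without them thus have no background beside them. In the cytosol and nucleus the counts of higher members were 22, 11, 10 and 21 of 32 at weeks 1, 2, 4 and 8, and in mitochondria the counts of lower members were 5, 5, 1 and 4 of 10. Without the 4 libraries these counts were 22, 12, 15 and 22 in the cytosol and nucleus and 6, 1, 3 and 5 in mitochondria. Called higher at each week were Dnajb1, Dnajc14, Hsp90aa1, Hspa1l, Hspa2, Hspb1 and Hspb6, and lower at each week Dnajc28 (named after their values were seen). These calls are of means over genotypes. In wild type hearts alone none of these members was called at week 4 (limma adjusted p between 0.14 and 0.96). In KO hearts alone Dnajb1, Dnajc14, Hspa1l and Hspa2 were called at that week. There Hspa2 had 0.78 in KO and 0.04 in wild type hearts, and Dnajb1 had 0.85 and 0.06. Dnajc14, Hspa1l, Hspb1 and Dnajc28 kept all 4 weeks under median-of-ratios scaling, under quantile normalization and without the 4 libraries. Under quantile normalization Dnajb1 was not called at weeks 2 and 8 (adjusted p = 0.21 and 0.15), nor Hsp90aa1 (0.053) and Hspb6 (0.11) at week 2. Under median-of-ratios scaling Dnajb1 was not called at weeks 2 and 8 (0.21 and 0.086), Hsp90aa1 at weeks 1 and 2 (0.064 and 0.066) and Hspb6 at week 1 (0.28). Without the 4 libraries Dnajb1 (0.50) and Hspa2 (0.36) were not called at week 2.

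A difference of the TAC effect between weeks was called for 22 members, against 50.8% of all genes, and for 15 without the 4 libraries of week 2, against 35.9%. Called in both were 8 members: Dnaja2, Dnajb4, Dnajb12, Dnajc10, Hspa14, Hspa1l, Hspb7 and Hspb11. Of these, Hspa14 and Hspb11 were not called under median-of-ratios scaling (adjusted p = 0.38 and 0.055) or quantile normalization. The count with all hearts was 35 when WTTAC heart 1 of week 2 was left out, and 13 when WTTAC heart 3, KOTAC heart 3 or KOTAC heart 4 of week 2 was. Median-of-ratios scaling gave 28 members, against 43.2% of all genes, and quantile normalization 27, against 43.7%. Hspb11 was highest at weeks 1 and 2 (0.67 and 0.48) and lower at weeks 4 and 8 (0.10 and 0.27). Dnajb12, a membrane J-domain protein of the ER, had 0.26 at week 1 and -0.37 at week 2. The latter value includes the 4 length-depleted libraries, and the value without them is not given here.

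The third comparison asks whether the Ndufs4 deletion changed chaperone levels. In KOSH against WTSH hearts 0 of 69 members were called by limma, against 0.0513% of all genes, and 0 had an unadjusted p under 0.05. These p-values rest on a spread pooled over all 16 groups, with the TAC hearts and the length-depleted libraries included. The unadjusted count from a fit of the sham hearts alone is not given here. In KOTAC against WTTAC hearts 0 were called, against 0.820% of all genes, and 7 had an unadjusted p under 0.05: Hspa2 and Dnaja4, which had positive differences, and Hspa5, Hspa12a, Dnajc3, Hsp90b1 and Dnajb9, which had negative ones. The difference was 0.28 ± 0.08 for Hspa2 (adjusted p = 0.086) and -0.26 ± 0.08 for Hspa5 (adjusted p = 0.11). At week 4 Hspa2 had 2.66, 4.77, 2.53 and 5.31 FPKM in KOTAC hearts, against 2.87, 1.70, 2.32 and 1.77 FPKM in WTTAC hearts, and the ranges overlapped. The test of a TAC effect that differs between genotypes gave 0 members, against 0.00% of all genes, with 2 members at an unadjusted p under 0.05: Hspa2 with 0.31 ± 0.12 and Dnaja2 with 0.16 ± 0.08 (adjusted p = 1.00 each). The counts at an unadjusted p under 0.05 are given without the share of all genes at that level, so they have no background beside them. A p that misses the threshold does not show that the genotypes were alike.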

How the data were processed

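RNA of 64 mouse hearts (16 groups of 4) was analysed from 1 table of FPKM values that the authors deposited, made by them from paired-end reads of 50 bases: TopHat placed reads on mm9, uniquely placed reads with less than 2 mismatches were kept, and Cufflinks gave FPKM on Ensembl gene models, summed over transcripts. FastQC is also named in the submitters' processing notes, and versions are not given in the sources used here. Groups came from the sample labels. Nothing says that hearts of a group were littermates or processed together, and p-values measure the spread between hearts.

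The fit used limma 3.58.1 (R 4.3.3) with a trend on log2(FPKM + 1), 16 group means, and F tests on 3 degrees of freedom for weeks. The method was tested on simulated data. The naming rule took the 5 members of highest median in each compartment, the 5 of smallest p in 6 comparisons, and up to 3 genes of each related list. Not all genes it took are described. Others described by heart or value were added after their values were seen, as were the 8 genes compared for the highest heart. Members, lists and compartments were chosen with earlier results of these data known. Gene models and overlaps came from GENCODE on mm9 (80 members found) and start regions from RefSeq on GRCm38.p6. The Python packages pandas 2.3.3 and matplotlib 3.10.9 served descriptions and figures. Alternatives were the pseudocount (0.1), filters (none, or 5 FPKM), median-of-ratios and quantile scaling, no trend, array weights, only the hearts compared, a replicate block, and leaving out each heart or the 4 length-depleted libraries. No 2 columns were identical.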

Additional observations from a re-analysis of the deposited data

Results flagged for a closer look

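Among 288 groups of 4 hearts (18 members shown by heart, 16 groups each), 22 held a heart that stood apart from the other 3 by Dixon's criterion, which chance alone meets in about 1 of 20 groups. In KOSH hearts the high ones were heart 1 of week 4 for Hspb1 (161 FPKM, against 70.6 to 79.3 FPKM in the other 3), Hspb7 (1198 FPKM, against 658 to 702 FPKM), Hspa1a (4.51 FPKM, against 0.554 to 0.593 FPKM) and Hspa1b (5.49 FPKM, against 0.501 to 0.711 FPKM), heart 2 of week 2 for Hspb1 (144 FPKM, against 68.0 to 73.9 FPKM), heart 3 of week 8 for Hspa1l (2.42 FPKM) and heart 3 of week 1 for Dnajc10 (10.3 FPKM). Low KOSH hearts were heart 3 of week 4 for Hspa5 (163 FPKM, against 216 to 226 FPKM), heart 2 of week 1 for Hsp90b1 (87.6 FPKM) and heart 2 of week 8 for Hspd1 (77.2 FPKM) and Dnaja3 (50.5 FPKM). In KOTAC hearts, heart 5 of week 4 was high for Hspa1a (12.5 FPKM, against 1.02 to 1.78 FPKM) and Hspa1b (13.7 FPKM, against 1.10 to 1.80 FPKM), heart 2 of week 2 for Hspa1b (3.86 FPKM) and heart 3 of week 4 for Dnajc28 (13.0 FPKM, against 9.26 to 9.56 FPKM). In WTTAC hearts, heart 5 was low for Hspb6 at week 8 (628 FPKM) and for Hsp90aa1 at week 1 (34.2 FPKM), as were heart 2 of week 4 for Hspa1l (3.07 FPKM) and heart 6 of week 8 for Hsp90b1 (79.1 FPKM). In WTSH hearts, heart 2 of week 1 was high for Hspa1a (1.33 FPKM), and low were heart 4 of week 8 for Hspb6 (480 FPKM) and heart 3 of week 8 for Dnaja3 (51.3 FPKM).

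The TAC effect differed between the 4 weeks for 6 of these 18 members, by limma's F test with Benjamini-Hochberg adjustment over all genes. Of all genes tested, 50.8% were called by the same test, so these members did not stand above the background. The adjusted p was 0.00692 for Hspb7, 0.0426 for Hspa1a, 0.0473 for Hspa1b, 0.00510 for Hspa1l, 0.0166 for Dnajb4 and 3.70e-04 for Dnajc10. Without the 4 length-depleted libraries of week 2, Hspa1a (0.0939) and Hspa1b (0.111) were no longer called. Under median-of-ratios scaling Hspa1b was not called (0.0537).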

How the results depend on the processing

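The total of members called with TAC in each genotype stayed within 1.5 times under the settings tried, but its split did not. With median-of-ratios scaling it was 22 higher and 23 lower in KO hearts (34 and 11 as deposited) and 16 higher and 24 lower in wild type hearts (31 and 10 as deposited). Quantile normalization gave 20 higher and 26 lower in KO hearts, and 17 higher and 25 lower in wild type hearts. In KOTAC against WTTAC hearts, where limma called 0, 1 member was called under median-of-ratios scaling (Hspa2, 0.31, adjusted p = 0.0415), under quantile normalization (Hspa2, 0.32, adjusted p = 0.0311), with array weights (Dnaja4, 0.25, adjusted p = 0.0443) and with the replicate number as a block (Hspa5, -0.28, adjusted p = 0.0348). At week 4 the 12 members became 30 with array weights, 21 with only the hearts compared and 24 without the 4 length-depleted libraries. The shares of all genes at week 4 under these settings are not given here. The single member that differed between sham weeks became 0 under quantile normalization, against 0.923% of all genes, and 9 with array weights, against 15.3%. It became 5 with only the hearts compared, against 7.80%, and 3 without the 4 libraries, against 3.00%. Among members not called as deposited, some were called with the opposite sign, such as Dnajc13 in wild type hearts without the 4 libraries (0.10) and in KO hearts under quantile normalization (-0.15), Dnajc17 in wild type hearts under quantile normalization (-0.15), and Dnajb12 in KO hearts under median-of-ratios scaling and quantile normalization (-0.12 each). Others changed sign without a call, among them Dnaja2 in KO hearts (-0.05 under quantile normalization) and Dnajc7 (-0.02 in each genotype under median-of-ratios scaling), which was called higher in both as deposited. The cause was not tested. Leaving out each heart in turn gave 45 to 47 members in KO hearts, 38 to 43 in wild type hearts, 0 to 1 between KOTAC and WTTAC, 37 to 44, 28 to 36, 8 to 16 and 32 to 38 at weeks 1, 2, 4 and 8, 13 to 35 for a difference between weeks and 0 to 3 between sham weeks. Hspa2 was called between KOTAC and WTTAC without KOTAC heart 2 of week 2, heart 3 of week 4 or heart 2 of week 8.

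Whether heart numbers pair the samples was not settled. Over 77 same-number pairs the correlation of deviations was -0.357 to 0.535 (median 0.0148), and 24 were over 0.1. Over 307 different-number pairs it was -0.636 to 0.598 (median -0.00480), and 76 were over 0.1. The pairs were pooled over weeks, and at week 2 the length-depleted libraries were hearts 3 and 4 of both KOTAC and WTTAC. A replicate block gave 22 members at week 8 (36 without it), and the share of all genes with the block is not given here. The block gave 33 for a difference between weeks (22 without it), against 56.0% of all genes. Between sham weeks it gave 3 (Dnajb1, Hspa1a and Hspa1b, but not Hspa5), against 0.198%. FPKM hold no depth, which limits low genes such as Hspa1a in an unknown measure.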
